A study of Mus musculus with 2 samples.

Results

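Transcripts of 8 genes of the dystrophin-glycoprotein complex (Dmd, Utrn, Dag1, Sgca, Sgcb, Sgcd, Sspn and Lama2) were described in long-read RNA-seq of the gastrocnemius, a fast-twitch muscle of the mouse calf. The genes were taken by name from the transcript tables and not by a cut on a measured value, but earlier results of these data were known. They are 8 of the 15622 annotated genes detected over both libraries, and all 8 were detected in each library (of 13389 genes in replicate 1 and 14122 in replicate 2). The series holds 1 group: male B6CASTF1/J mice, the F1 cross of C57BL/6J and CAST/EiJ, aged 25 days, with 2 biological replicates and 2 µg of RNA per library. The labels name no engineered allele and no treatment. The labels name separate biosamples for the replicates but point both to 1 donor record, so the spread between the libraries may be partly technical. In long-read sequencing 1 read can cover a whole transcript, and each read was assigned by the authors to an annotated or a new transcript model.

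The complex links the actin cytoskeleton of the muscle fibre to the basement membrane around it. Dystrophin (Dmd) and its autosomal homologue utrophin (Utrn) bind actin and β-dystroglycan, α-dystroglycan (both subunits are cut from the Dag1 product) binds laminin outside the cell, and the sarcoglycans with sarcospan (Sspn) form a membrane subcomplex beside them. Loss of dystrophin causes Duchenne muscular dystrophy, loss of α-, β- or δ-sarcoglycan causes limb-girdle muscular dystrophy, and loss of the laminin chain encoded by Lama2 causes a congenital muscular dystrophy.

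Replicate 1 held 1292409 reads, 1215785 of them in annotated genes, and replicate 2 held 1703457 reads, 1549606 of them in annotated genes. Levels are given as CPM, the gene's reads of all classes per 1000000 reads in annotated genes of that library. A gene without a read could still lie at up to 2.47 CPM (replicate 1) or 1.94 CPM (replicate 2), the limit set by 3 reads. The muscle label held: the summed level of 5 fibre markers (Acta1, Ckm, Myh4, Ttn and Des) was 167469 CPM in replicate 1 and 148758 CPM in replicate 2. Of these 5 fibre markers, 3 (Acta1, Myh4 and Ttn) were higher in replicate 1 and 0 were higher in replicate 2. Myh4 had 23867 CPM in replicate 1 and 9831 CPM in replicate 2. Markers of some other cell types differed between the libraries too. Summed levels of 7 fibroblast markers were 4602 CPM in replicate 1 and 938 CPM in replicate 2 (4 of 7 higher in replicate 1, 0 lower), and those of 6 Schwann cell markers were 151 and 510 CPM (3 of 6 higher in replicate 2, 0 lower). All of these markers had reads in both libraries. Endothelial (76.5 and 69.0 CPM), smooth muscle and pericyte (184 and 125 CPM) and immune markers (60.0 and 58.7 CPM, Ptprc at 0) were lower than the fibroblast sum in each library, with replicate 1 first. Between these 2 bulk libraries, fewer cells of a type, less RNA per cell and a technical difference between the libraries cannot be told apart.

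Summed over the 8 genes, 571 reads in replicate 1 and 440 in replicate 2 gave 470 and 284 CPM (377 ± 131 CPM, mean and SD, n = 2). The 3 sarcoglycan genes supplied most of them, 401 reads (70.2%) in replicate 1 and 367 reads (83.4%) in replicate 2. Dystrophin itself was a minor part of the reads.

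The level of Sgca was 151 CPM in replicate 1 and 142 CPM in replicate 2 (147 ± 6.63 CPM, SD, n = 2 here and below), and its mean lay at the 95.4th percentile of detected genes. Sgcb had 167 and 83.2 CPM in the same order (125 ± 59.2 CPM, percentile 94.6), and Dag1 had 89.7 and 27.1 CPM (58.4 ± 44.2 CPM, percentile 89.2). In each library these 3 genes were above the other 5. Sspn had 28.8 CPM in replicate 1 and 10.3 CPM in replicate 2 (19.6 ± 13.1 CPM, percentile 74.8), and Sgcd 11.5 and 11.6 CPM (11.6 ± 0.0712 CPM, percentile 65.7). The genes with the longest transcripts came last. Dmd had 12.3 CPM in replicate 1 and 2.58 CPM in replicate 2 (7.46 ± 6.90 CPM, percentile 58.0), Lama2 7.40 and 1.29 CPM (4.35 ± 4.32 CPM, percentile 48.4), and Utrn 1.65 and 5.81 CPM (3.73 ± 2.94 CPM, percentile 45.5). Between neighbours in this order the ranges over the 2 libraries overlapped in every case. Within each library, Sgcb was above Dag1, Dag1 above Sspn and Dmd above Lama2, whereas the other neighbours changed places between the libraries.

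**Figure D1:**
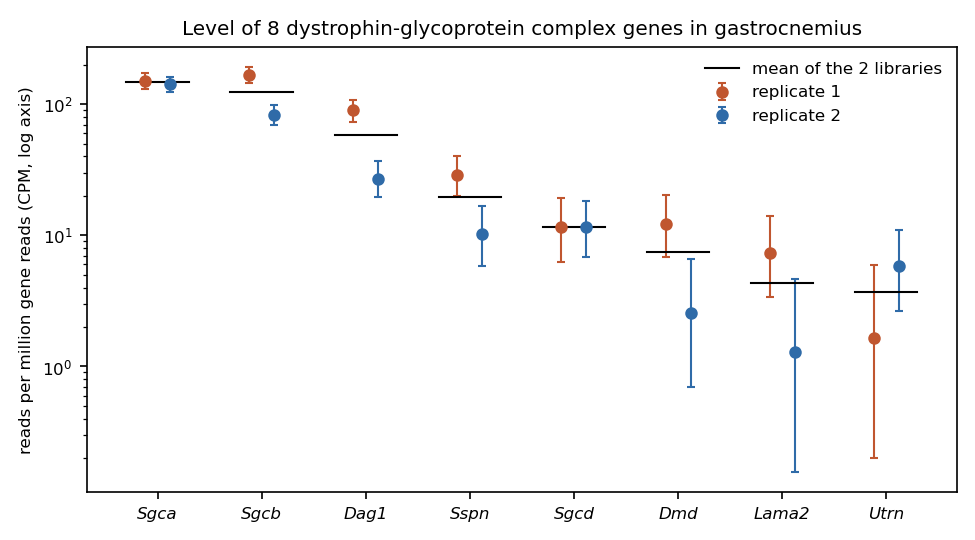
Level of each gene in CPM on a log axis, replicate 1 left and replicate 2 right, with exact Poisson 95% intervals that cover counting error only; black lines are the means of both libraries. Sgca and Sgcd lie at nearly the same height in both libraries, Utrn is the gene whose point is higher in replicate 2, and the other 5 points are higher in replicate 1.

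CPM counts a long read once and is not divided by length. Divided by the length of the main annotated transcript, the mean levels were 85.3 CPM per kb for Sgca, 33.0 for Sgcb, 10.3 for Dag1, 7.17 for Sgcd and 4.42 for Sspn. On the same per-length scale Dmd had 0.500 CPM per kb, Lama2 0.452 and Utrn 0.301. The 3 genes with transcripts of 9614 to 14910 nt were thus lowest by their means on both scales, and lowest in each library on the per-length scale.

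Between the libraries, 5 of the 8 members differed past the threshold (two-sided Fisher exact test on reads, Benjamini-Hochberg adjusted p under 0.05), all 5 higher in replicate 1. Over all 8692 tested genes, 43.3% passed in either direction, 26.3% higher in replicate 1 (2286 genes) and 17.0% higher in replicate 2 (1480 genes). The test compares these 2 libraries and covers counting error only, not the spread between animals. The log2 ratio of CPM + 1, replicate 1 over replicate 2, had a median of 1.20 over the 8 members and 0.27 over all tested genes. With TMM or DESeq2 scaling, which shift the log2 ratio by -0.29 or -0.32, the split over all genes turned to 1600 higher and 1953 lower in replicate 1 (TMM) or 1540 and 1995 (DESeq2), and 4 members passed, all higher in replicate 1.

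Dag1 had the smallest adjusted p among the members (log2 ratio 1.69, counting SE 0.26, adjusted p = 3.4e-11, Fisher exact test), and Sgcb followed (1.00, SE 0.16, adjusted p = 4.1e-09). Sspn (log2 ratio 1.40, SE 0.44, adjusted p = 0.00215), Dmd (1.90, SE 0.81, adjusted p = 0.00747) and Lama2 (1.88, SE 1.13, adjusted p = 0.0346) rested on fewer reads. Their log2 ratios depended on the pseudocount: with 0.1 and 10 CPM in place of 1 they were 2.21 and 0.83 for Dmd, 2.43 and 0.62 for Lama2, and 1.47 and 0.93 for Sspn. The Lama2 call was lost with TMM scaling (adjusted p = 0.0785), with DESeq2 size factors (0.0813) and without a read minimum (0.0603). The other 3 members did not pass. Sgca had a log2 ratio of 0.09 (SE 0.14, adjusted p = 0.676), which became -0.20 under TMM and -0.22 under DESeq2 scaling. Sgcd had -0.01 (SE 0.51, adjusted p = 1.00) and Utrn -1.36 (SE 1.13, adjusted p = 0.214) by the same Fisher exact test. With edgeR's exact test and an assumed biological coefficient of variation of 0.2, Dag1 alone passed, and with 0.4 no member did. The fibroblast markers Col1a1, Col3a1, Col1a2 and Dcn were also higher in replicate 1, while Lum, Dpt and Pdgfra did not pass, and their part in the differences was not tested.

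Dmd, the largest gene of the set, spans 2257272 bp of the X chromosome (chrX:82948870-85206141, mm10, + strand), and its main transcript Dmd-203 has 79 exons and 14910 nt. It had 15 reads in replicate 1 and 4 in replicate 2, of which 8 and 4 were spliced. No read held the first intron (0 of 15 in replicate 1, exact 95% interval up to 21.8%, and 0 of 4 in replicate 2, up to 60.2%), so the reads show stretches of the messenger and not its whole length. Laid end to end, the stretches of replicate 1 still covered nearly all of it: 77 of 79 exons had a read there, all but exons 1 and 2, while 20 of 79 had one in replicate 2. The longest 5′ stretch was 1 read from exon 3 to exon 40 that held 37 consecutive introns, on a model of 5951 nt. A further read ran from exon 35 to exon 44. Of the other 6 spliced reads in replicate 1, all reached exon 79, on models starting in exons 45, 49, 62, 63, 71 and 77. The model from exon 45 has 7150 nt. These models start at the first base of an annotated exon, so starts and lengths are those of models, not of reads.

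In replicate 2 the 4 Dmd reads were exons 14 to 16, exons 14 to 15, exons 65 to 79 and 1 read on Dmd-201. Dmd-201 begins in its own first exon of 47 nt (chrX:85048413-85048459) and runs on through exons 63 to 79. This start, which lies between exons 62 and 63, is that of Dp71, the short dystrophin product known from non-muscle cells and brain. The read was the only Dmd read of either library on an annotated full chain. In replicate 1, 1 read also began at exon 63 but without that first exon.

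No Dmd read skipped an exon or used an unannotated intron. Exons 71 and 78 are of interest because both are alternatively spliced in dystrophin of other tissues and in early muscle, and exon 78 sets the reading frame of the C-terminus. Exon 71 was held with both splice sites by 4 reads in replicate 1 and 2 in replicate 2. Exon 78 was held so by 6 and 2, and 0 reads skipped either exon. The read on the replicate 1 model that starts in exon 71 is not counted for that exon. The exons, in capitals with 10 bases of the neighbouring exons on each side, read 5′ to 3′ as follows (Dmd-203 of GENCODE M21, mm10, chrX:85144911-85144949 and chrX:85197504-85197535, + strand).
Dmd exon 71: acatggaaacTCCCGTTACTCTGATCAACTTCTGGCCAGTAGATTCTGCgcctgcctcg
Dmd exon 78: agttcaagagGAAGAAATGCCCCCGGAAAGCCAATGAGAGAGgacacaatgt

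The deposited models of spliced Dmd reads that reached exon 79 mostly shared a 3′ end. It was chrX:85205039 for 5 reads of replicate 1 and 2 of replicate 2, 1102 nt before the end of Dmd-203. For 1 read of replicate 1 it was chrX:85202498. The annotated Dmd-201 also ends at chrX:85205039, and where the reads themselves ended cannot be told from the models. In replicate 1, 7 Dmd reads were unspliced, 2 of them in exon 79 and 5 outside every annotated exon of the gene. Replicate 2 had 0 such reads. Unspliced intronic reads therefore made up 5 of the 15 reads behind the replicate 1 level.

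Utrn (chr10:12382188-12869365, mm10, - strand) encodes utrophin, which in adult fibres is concentrated at neuromuscular and myotendinous junctions. Its main transcript has 74 exons and 12382 nt, and the gene had 2 reads in replicate 1 and 9 in replicate 2. Both reads of replicate 1 were spliced, on long models from exon 30 to exon 74 (8157 nt) and from exon 27 to exon 53 (4681 nt). The second model begins before exon 27, at chr10:12688862. In replicate 2, 3 reads ran from exons 43, 51 and 69 to exon 74 and 1 was spliced outside the main exons, while 5 were unspliced, 2 in the last exon and 3 in introns. As for Dmd, 0 reads held the first intron of the main transcript (exact 95% intervals up to 84.2% and 33.6%). Models starting within 100 bp of any annotated Utrn start held 1 read in each library. With 2 and 4 spliced reads, Utrn was at a depth at which no use of alternative exons could be described. The 4 neuromuscular junction markers (Chrna1, Chrne, Colq and Musk) summed to 59.2 CPM (replicate 1) and 65.8 CPM (replicate 2), and 0 of 4 passed the threshold.

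Lama2 (chr10:26980036-27619758, mm10, - strand) encodes the α chain of the main laminin of the muscle basement membrane and had 9 reads in replicate 1 and 2 in replicate 2. In replicate 1 its reads were the most complete of the 3 long genes. In replicate 1, 2 reads held 60 of the 64 introns of the main transcript Lama2-201. Their models, of 9604 and 9619 nt, run from exon 1 to the annotated 3′ end in exon 65. A further 2 reads ran from exon 4 to exon 65 (models of 9440 and 9356 nt), and 3 held exon 1 but stopped early. The model of 1 of them ends past exon 43, at chr10:27054019, before exon 44. Those of the other 2 end past exon 12, both at chr10:27323359, 1 of them after an unannotated intron (chr10:27323502-27324580). The other 2 reads were unspliced and overlapped exons 34 and 65. Both reads of replicate 2 were 3′ stretches, exons 57 to 65 and exons 63 to 65.

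None of these near-complete reads matched Lama2-201 fully. All 4 reads that crossed exons 44 and 53 lacked both, and 0 reads held either (0 of 4, exact 95% interval up to 60.2%). Exon 44 has 6 nt and exon 53 has 12 nt, both coding. They are shown because they separate the observed messenger from the main annotated one, in capitals between 20 bases of each neighbouring exon (Lama2-201 of GENCODE M21, mm10, chr10:27053028-27053033 and chr10:27021461-27021472, - strand, 5′ to 3′).
Lama2 exon 44: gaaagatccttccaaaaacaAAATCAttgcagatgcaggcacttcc
Lama2 exon 53: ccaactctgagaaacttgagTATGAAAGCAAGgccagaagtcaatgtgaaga

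At exon 44 all 4 reads joined exons 43 and 45 at their annotated ends, a junction present in another annotated Lama2 transcript. At exon 53 the picture was mixed. In 1 read exons 52 and 54 were joined at their annotated ends, also an annotated junction, and in the other 3 exon 52 ran on by 8 nt before the junction. Whether the authors' alignment could place exons of 6 and 12 nt was not tested. Both reads that began in exon 4 also shared an unannotated exon of 267 nt between exons 20 and 21 (chr10:27207399-27207665, mm10). All of this rests on replicate 1, since no read of replicate 2 reached these exons.

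**Figure D2:**
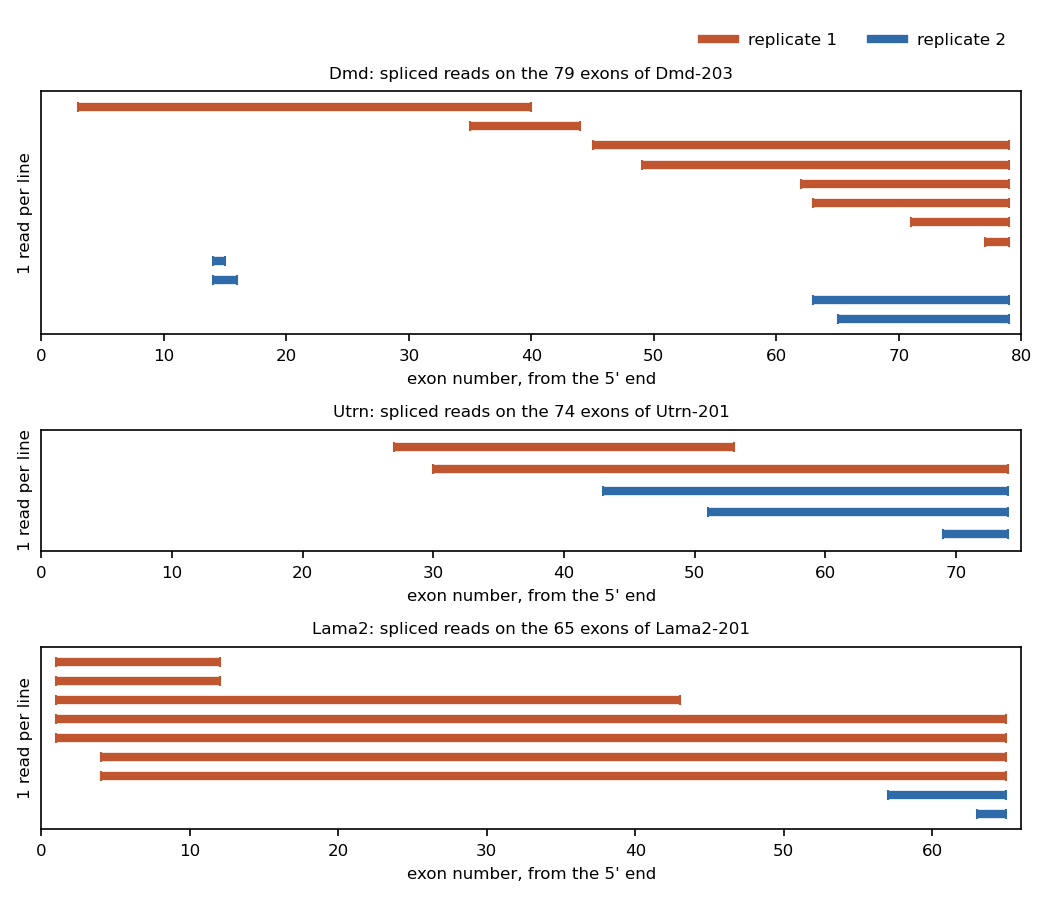
Spliced reads of Dmd, Utrn and Lama2 drawn as lines from the first to the last exon they touch, on the exon numbers of the main transcript counted from the 5′ end, replicate 1 above replicate 2. In Dmd the read on Dmd-201 is drawn from exon 63, where it joins the main transcript; 2 Lama2 reads of replicate 1 span exons 1 to 65, and no Dmd or Utrn read touches exon 1.

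Dag1 (chr9:108204634-108263958, mm10, - strand) encodes dystroglycan, the laminin receptor of the complex, in 4 exons of which the last has 5028 nt. It had 109 reads in replicate 1 and 42 in replicate 2. Unspliced reads inside the last exon made up 48 reads (44.0%, exact 95% interval 34.5 to 53.9%) in replicate 1 and 35 reads (83.3%, 68.6 to 93.0%) in replicate 2. They were deposited as 1 model in each library, of 3427 nt in replicate 1 and 2878 nt in replicate 2, both ending at the annotated 3′ end. Spliced Dag1 reads thus numbered 61 in replicate 1 and 7 in replicate 2, a wider gap than that of the gene's total.

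The annotation gives Dag1 several 5′ non-coding first exons, while the coding region starts in exon 3. Among reads that showed their first exon, that of Dag1-204 was held by 30 of 55 reads (54.5%, exact 95% interval 40.6 to 68.0%) in replicate 1 and 3 of 7 (42.9%, 9.90 to 81.6%) in replicate 2. The first exon of Dag1-201 was held by 19 of 55 (34.5%) and 2 of 7 (28.6%), and that of Dag1-203 by 6 of 55 (10.9%) and 2 of 7 (28.6%). All 3 starts were therefore seen in both libraries, with intervals in replicate 2 too wide to rank them there. RefSeq (GRCm38.p6) places 2 promoters at this gene.

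The Sgca gene (chr11:94962791-94976327, mm10, - strand) encodes α-sarcoglycan, a subunit made in striated muscle, and had the most reads over both libraries, 184 in replicate 1 and 220 in replicate 2. Of these, 182 and 217 were spliced, and 135 (73.4%) and 160 (72.7%) were on annotated transcripts. The level, the annotated share and the use of exons were close in both libraries. Reads fell into 2 classes of 5′ end. In 36 of 170 informative reads of replicate 1 (21.2%, exact 95% interval 15.3 to 28.1%) and 55 of 199 of replicate 2 (27.6%, 21.5 to 34.4%) the read held the upstream non-coding first exon of 213 nt (chr11:94976115-94976327). The other 134 (78.8%) and 144 (72.4%) were on models that begin inside exon 2, where Sgca-201 starts. The start codon lies in exon 2, downstream of the start of Sgca-201, so the annotated transcripts behind both classes hold the same start codon. A read of the longer transcript cut short inside exon 2 cannot be told apart from a transcript that starts there.

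The upstream start is the one RefSeq annotates, and the 250 bases before it are shown as the sequence beside this first exon (chr11:94976328-94976577, GRCm38.p6, - strand, 5′ to 3′). The capitals mark its 1 match to CANNTG, the E-box that muscle regulatory factors such as MyoD bind, searched on both strands (the motif is its own reverse complement).
Sgca promoter: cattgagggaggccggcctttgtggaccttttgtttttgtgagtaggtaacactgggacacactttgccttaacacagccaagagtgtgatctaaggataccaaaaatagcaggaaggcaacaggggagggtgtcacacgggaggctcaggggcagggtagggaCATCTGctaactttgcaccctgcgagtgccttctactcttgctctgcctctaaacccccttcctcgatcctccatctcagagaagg
In the full window of 300 bases, which runs 50 bases past the start, Sgca had 2 matches. At least 1 match was held by 72.3% of 32851 mouse promoter windows of that length and at least as many as Sgca by 39.6%. Over the 8 members, 8 of 11 windows held a match, with 7 matches in the Utrn window and 0 in that of Sgcb.

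Sgca also varied at its 3′ end. The coding region ends in exon 10, and the last intron (121 nt, chr11:94963081-94963201) lies after it. The intron was removed at its annotated ends in 149 of 178 reads (83.7%, exact 95% interval 77.4 to 88.8%) in replicate 1 and 188 of 215 (87.4%, 82.3 to 91.6%) in replicate 2. An acceptor 114 nt further downstream, also annotated, was used in 23 (12.9%, 8.37 to 18.8%) and 19 reads (8.84%, 5.40 to 13.5%). The intron was kept in 6 (3.37%) and 8 (3.72%). Read by read, the downstream acceptor occurred with both starts: in 6 and 3 reads that held the upstream exon, and in 17 and 14 on models that begin inside exon 2. The most frequent such chain, with 16 reads in replicate 1 and 13 in replicate 2, carried different labels in the libraries: a new combination of known splice sites in replicate 1 and an incomplete match in replicate 2. The class in the tables can thus differ for the same intron chain.

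Within the coding region Sgca exons were almost constant. Exon 7 (163 nt) was included in 175 of 177 informative reads in replicate 1 (98.9%) and 203 of 205 in replicate 2 (99.0%), and exon 9 (27 nt) in 179 of 179 (100%) and 209 of 210 (99.5%). Exon 4 was shortened by 20 nt at its 3′ end, with an unannotated donor, in 2 reads of replicate 1 and 4 of replicate 2. Exon 2 was skipped by 1 and 3 reads that held the upstream first exon.

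Sgcb (chr5:73632749-73647790, mm10, - strand) encodes β-sarcoglycan, which forms the core of the sarcoglycan subcomplex with δ-sarcoglycan. It had 203 reads in replicate 1 and 129 in replicate 2. The complete chain of its main transcript Sgcb-201, all 5 introns, was held by 167 reads in replicate 1 (82.3%) and 66 in replicate 2 (51.2%), the highest counts among the members. The remainder of replicate 2 was largely unspliced. It held 20 reads on a model of 452 nt and 3 on a model of 603 nt in the last exon, and 19 on a model whose deposited coordinates cover 1 nt at the annotated 3′ end. In replicate 1 a model of 2950 nt in the last exon held 11 reads. Spliced Sgcb reads numbered 192 in replicate 1 and 87 in replicate 2.

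The coding exons of Sgcb carried low-level variants that recurred in both libraries. Between exons 5 and 6, an unannotated exon of 134 nt (chr5:73638861-73638994, mm10) was present in 5 of 192 reads in replicate 1 (2.60%, exact 95% interval 0.851 to 5.97%) and 2 of 87 in replicate 2 (2.30%, 0.280 to 8.06%). Another, of 89 nt, was present in 1 read of each library. At intron 1 an acceptor 4 nt downstream of the annotated one was used by 3 reads in replicate 1 and 2 in replicate 2, against 175 and 73 with the annotated intron. The junction of exons 1 and 2 is shown with those 4 bases, which these reads lack, in capitals (Sgcb-201 of GENCODE M21, mm10, chr5:73644272-73647790 for both exons, - strand, 5′ to 3′).
Sgcb exons 1 and 2: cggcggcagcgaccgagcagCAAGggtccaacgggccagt

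Sgcd (chr11:46896253-47988969, mm10, - strand), for δ-sarcoglycan, spans 1092717 bp for a main transcript of 1617 nt. Its level was nearly equal in the libraries, with 14 reads in replicate 1 and 18 in replicate 2, and the complete chain of Sgcd-201 was held by 4 and 6 reads. The largest model of each library was unspliced and lay downstream of the annotated end of Sgcd-201: 6 reads to chr11:46971075 in replicate 1 and 7 reads to chr11:46971079 in replicate 2, which is 7710 and 7706 nt past that end. In replicate 1, 1 read joined exons 2 to 8, on a model of 9058 nt that runs without a break to the same base, chr11:46971075. RefSeq (GRCm38.p6) ends the gene within a few bases, at 46971077. In both libraries some reads from exon 1 stopped in intron 5, 967 nt past exon 5 (2 reads in replicate 1, 1 in replicate 2).

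Sspn (chr6:145931641-145965223, mm10, + strand), for sarcospan, a small membrane protein that binds the sarcoglycans, had 35 reads in replicate 1 and 16 in replicate 2. The annotated 3-exon transcript Sspn-201 held 26 reads in replicate 1 and 4 in replicate 2. In replicate 2 the other 12 reads were unspliced in the last exon, and replicate 1 had 4 such reads. As for Dag1, spliced reads differed more between the libraries (30 and 4) than the total. Within the last exon, an unannotated intron of 69 nt was removed in 3 reads of replicate 1.

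**Figure D3:**
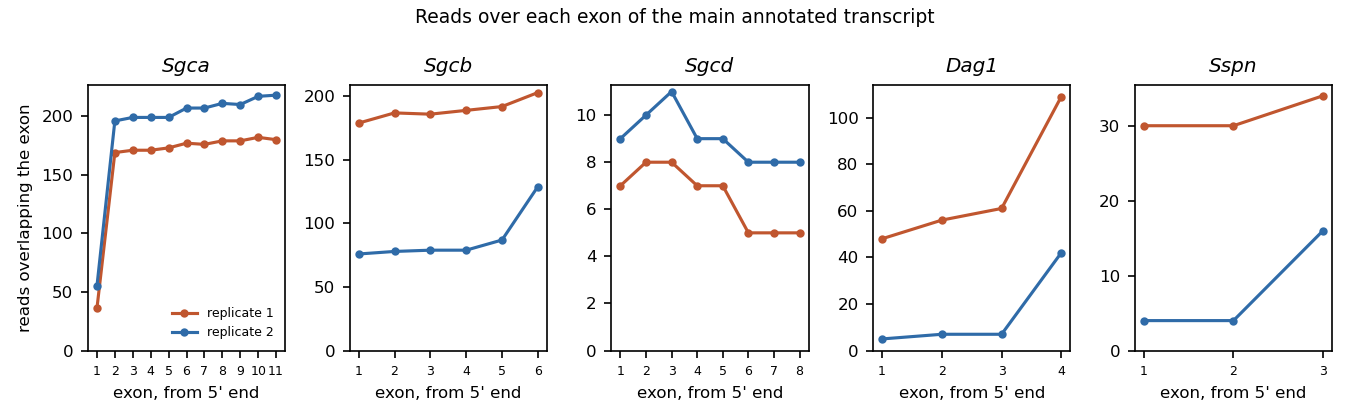
Reads overlapping each exon of the main annotated transcript of 5 genes, exons counted from the 5′ end, replicate 1 in orange and replicate 2 in blue; each panel has its own axis from 0. Sgca drops at exon 1 in both libraries, and in replicate 2 Sgcb, Dag1 and Sspn have far more reads in the last exon than in the others.

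**Figure D4:**
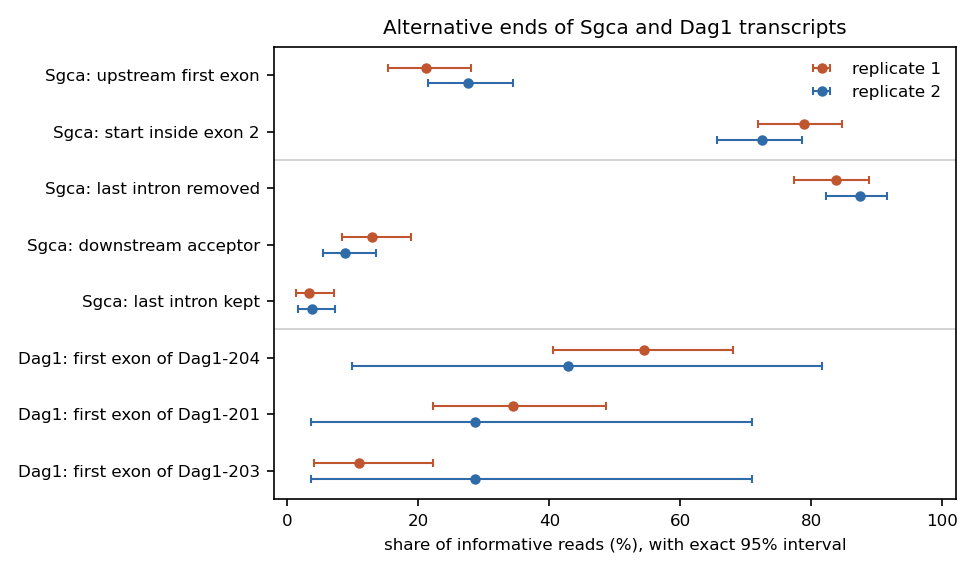
Share of informative reads (%) for each alternative first exon and last-intron form of Sgca and each first exon of Dag1, replicate 1 above replicate 2, with exact 95% intervals that cover counting error only. The Sgca intervals of the libraries overlap in every pair, and the Dag1 intervals of replicate 2 rest on 7 reads.

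Over all 8 genes, 379 of 571 reads in replicate 1 (66.4%, exact 95% interval 62.3 to 70.2%) and 243 of 440 in replicate 2 (55.2%) were on annotated transcripts, a mean of 60.8%. The same share over all annotated genes was 65.8% in replicate 1 and 70.6% in replicate 2. Unspliced reads made up 14.2% of member reads in replicate 1 and 23.6% in replicate 2, against 5.10% and 14.1% over all annotated genes. Both shares of unspliced reads were higher in replicate 2. The first intron of the main transcript was held by 49.2% of member reads in replicate 1 and 32.0% in replicate 2, and all introns by 43.8% and 28.6%.

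**Figure D5:**
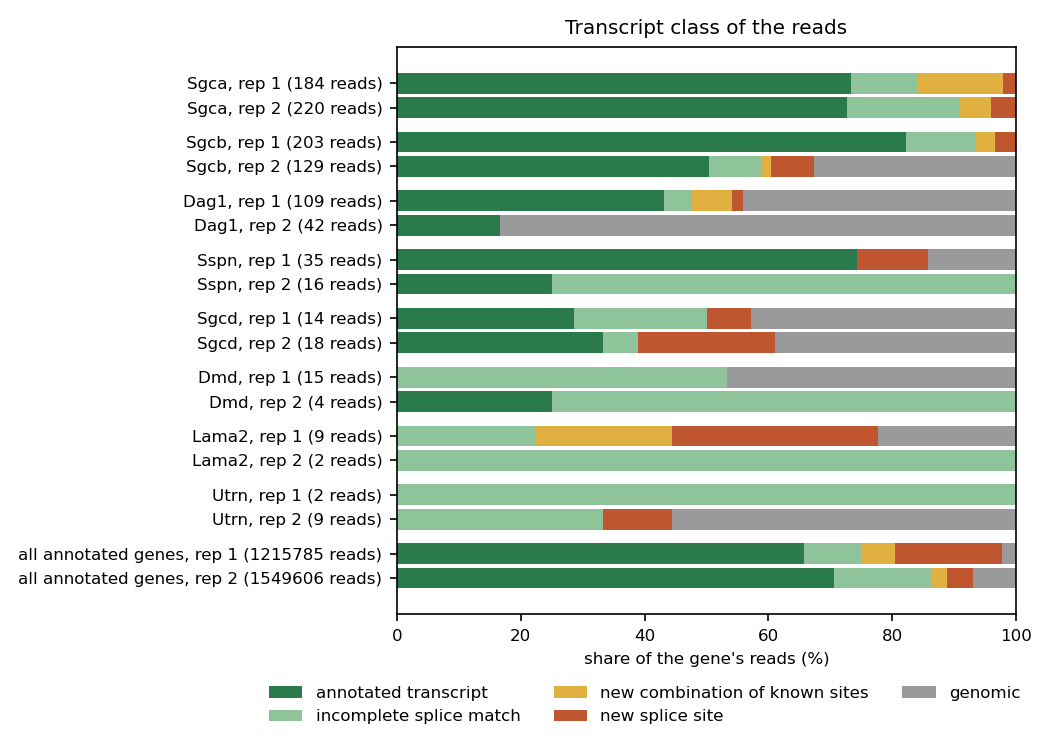
Share of each gene's reads (%) by the transcript class in the deposited tables, replicate 1 above replicate 2, with read totals in brackets and all annotated genes at the bottom. Sgca has nearly the same annotated share in both libraries, whereas the annotated share of Sgcb, Dag1 and Sspn is smaller in replicate 2; Dmd, Lama2 and Utrn have at most 1 read on an annotated transcript.

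Alternative exons were tested between the libraries for 7 exons with 10 or more informative reads, in Dag1, Sgca and Sgcb. By the two-sided Fisher exact test 0 of 7 passed at an adjusted or an unadjusted p under 0.05, and the smallest p was 1.00. For each tested exon of Dag1 and Sgcb and for Sgca exon 9, only 1 read over both libraries had the rarer form. No placing of 1 read could pass, so these tests cannot show equal use. In the coding exons of Sgca and Sgcb among the 7, skipping was seen in at most 3 reads per library. Unannotated spliced chains of the 8 genes numbered 58 in replicate 1 and 49 in replicate 2, and 17 were found in both, which is 29.3% and 34.7% of each list. Of 41 unannotated introns, 11 were found in both libraries: 6 in Sgcb, 4 in Sgca and 1 in Sgcd.

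Other genes of the complex were read beside these. Of 12 listed genes (sarcoglycans, syntrophins, dystrobrevins, Nos1 and Cav3), 10 were detected (Sntg1 and Sntg2 had 0 reads) and 7 tested, with 3 higher in replicate 1 and 1 higher in replicate 2. Cav3, the muscle caveolin, was higher in replicate 2 (64.2 CPM in replicate 1 and 110 CPM in replicate 2, adjusted p = 3.2e-04, Fisher exact test). Dtna, α-dystrobrevin, had 62.5 and 35.5 CPM.

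Of 18 listed enzymes that glycosylate dystroglycan, 17 were detected and 14 tested, with 2 higher in replicate 1, 3 higher in replicate 2 and a median log2 ratio of 0.51. Pomgnt1 and B3galnt2, which both add sugars to the O-mannose chains of dystroglycan, had 157 and 96.2 CPM in replicate 1 against 66.5 and 36.1 CPM in replicate 2. Dpm1, which makes the mannose donor, and Rxylt1 had 64.2 and 37.0 CPM in replicate 1 and 139 and 75.5 CPM in replicate 2. Calls went in both directions, as they did over all tested genes (26.3% higher in replicate 1 and 17.0% higher in replicate 2).

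Basement membrane and adhesion genes that passed the threshold were all higher in replicate 1. Of 13 basement membrane genes 9 were higher in replicate 1 and 0 higher in replicate 2 (median log2 ratio 1.48), and of 6 laminin receptor and adhesion genes 5 and 0 (median 1.50), while the median over all tested genes was 0.27. The laminin partner chains Lamb2 and Lamc1 had 157 and 78.1 CPM in replicate 1 and 31.0 and 13.6 CPM in replicate 2, and the laminin receptor subunits Itgb1 and Itga7 had 146 and 81.4 CPM against 38.7 and 14.2 CPM. Dag1 was closest in level to Col6a1 (77.3 CPM in replicate 1 and 27.1 CPM in replicate 2, a distance of 0.21 in log2(CPM + 1) over both libraries, among 46 listed genes compared). Lama2 had the same reads as Lama5 in both libraries. The part of the 4 fibroblast markers that were higher in replicate 1 was not tested here either.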

How the data were processed

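Read counts per transcript model, with class, exon number and length, and model coordinates were deposited for each library. Per the file headers, reads were assigned to GENCODE M21 or new models on mm10 with TALON, each library separately; aligner, read filters and use of strand: not given in the sources used here. Coordinates and lengths are those of the deposited models, not of single reads, and those of annotated models come from the annotation. Counts of all classes were summed per gene without spike-ins and divided by reads in annotated genes (CPM). The main transcript was the longest principal coding one. Levels are means ± SD over 2 libraries. Genes with at least 10 reads in the 2 libraries together were tested by Fisher exact test with Benjamini-Hochberg adjustment (scipy 1.17.1, threshold 0.05) on the whole table, tested on simulated data; log2 ratios use a pseudocount of 1 CPM. Intervals are exact Clopper-Pearson at 95%, and the limit for a gene without reads is 3 reads; both cover counting error only, since reads are not independent molecules after amplification. Alternatives used edgeR 4.0.16 and DESeq2 1.42.0 scaling, edgeR's exact test, other filters, classes and pseudocounts, and leaving out each library. Named items were all 8 members, per member up to 3 models and recurrent chains, each exon with 10 or more informative reads, up to 4 genes of each related list by mean CPM, and the listed gene nearest in level; other models, introns and single reads were named after their values were seen, and some items that meet the rule are not reported here. Members, lists and tests were chosen with earlier results of these data known. Sequences come from GENCODE M21 transcripts and RefSeq promoters, in which all 8 members were matched.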

Additional observations from a re-analysis of the deposited data

How the results depend on the processing

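No paired analysis was possible because the series has 1 group. Against 5 of 8 members that differed between the libraries, 3 of the 5 members left to test passed with a minimum of 20 reads, with annotated transcripts only, and without incomplete and genomic reads. These were Dag1, Sgcb and Sspn each time, and Dmd and Lama2 fell below the read minimum. By edgeR's exact test 1 member and 1345 genes passed with a coefficient of variation of 0.2, and 0 members and 8 genes with 0.4, against 3766 genes by the Fisher exact test. The count under TMM, DESeq2 or no read minimum was 4. The log2 ratio of Sgca turned to -0.20 (TMM) and -0.22 (DESeq2). The share of reads holding the first intron of the main transcript was 40.6% as a mean of the libraries. Counting reads on models starting within 100 bp of any annotated start instead gave 74.2%. The alternative accepts the inner start of Sgca and takes starts of annotated models from the annotation. It therefore does not measure where the reads began. Without each library in turn, the summed level ranged from 284 to 470 CPM and the annotated share from 55.2 to 66.4%. The first-intron share ranged from 32.0 to 49.2%. The alternative-exon test could not be fitted without a library, since it compares the 2. The depth, 2 to 15 reads each for Dmd, Utrn and Lama2, limits statements on their isoforms to single reads.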
